A study of Mus musculus with 40 samples.

Results

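Described here are 10 genes of the disease-associated state of microglia, Clec7a, Gpnmb, Itgax, Cst7, Lpl, Spp1, Axl, Lgals3, Trem2 and Tyrobp, across the cerebral cortex and the cerebellum of young, aged and vitamin E deficient mice. A probe was taken as a member when its gene name on the array was 1 of these 10 symbols, which gave 11 probes, 2 of them for Lpl, among 55589 probes and 36362 gene names. The study asked which genes respond to chronic oxidative stress and to aging in the mouse brain, and measured total RNA of whole tissue pieces on 40 Agilent 1-colour arrays. All mice were C57Bl/6. Each region had 5 groups of 4 mice. Of the wild-type groups, 1 was young (2 months) and 1 aged (29 months) on a normal diet that held 36 mg α-tocopherol/kg, and 1 aged on the vitamin E deficient diet. Both Ttpa-/- groups were aged (29 months), 1 fed the deficient diet and 1 a supplemented diet that held 600 mg α-tocopherol/kg. The product of Ttpa is α-tocopherol transfer protein, which keeps vitamin E in the circulation, and the deletion is in every cell of the mouse. Every Ttpa-/- mouse was aged and none was on the normal diet, so the genotype was compared with wild-type mice on the normal diet or on the deficient diet. Whether the cortex and the cerebellum of a group came from the same mice, and the sex of the mice, are not given in the sources used here.

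Microglia are the resident macrophages of the brain. Around amyloid plaques, in demyelinated tissue and in the aged brain a part of them leaves the homeostatic state and turns on a set of receptors, lysosomal proteins and lipid-handling proteins. TREM2, a receptor for lipids and lipoproteins, signals through the adaptor TYROBP (DAP12), whose ITAM motif recruits the kinase SYK, and the full set needs TREM2. The same genes are used by other macrophages, and RNA of a whole tissue piece does not show which cells a signal came from. Nor can fewer cells of a type and less RNA per cell be told apart in it.

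The labels were checked first. In the cerebellum, 1 probe of Ttpa was well above background on 4 of 4 arrays of each of the 3 wild-type groups, on 0 of 4 of the Ttpa-/- mice on the deficient diet and on 1 of 4 of those on the supplemented diet. In the cortex this probe was above background on 0 or 1 array of each group, and so checks nothing there. The second probe of Ttpa was above background on 0 of 4 arrays of every wild-type group. It was so on 1 of 4 arrays of the Ttpa-/- cerebellum on the deficient diet, and checks nothing in either region. The cerebellar neuron genes Cbln3 and Gabra6 were above background on 0 of 4 arrays of every cortical group, and the cortical neuron gene Emx1 on 0 of 4 of every cerebellar group. The arrays lay on 5 slides of 8 arrays, each with 2 groups. The compared groups shared a slide in 3 comparisons, aging in the cortex, the deficient diet of wild-type mice in the cerebellum, and the diet of Ttpa-/- mice in the cerebellum. In every other comparison, slide and group cannot be told apart. Arrays of a group correlated at 0.979 to 0.995. Aged wild-type cortex replicate 4 was the lowest of its 4 arrays for 9 of the 10 genes, Ttpa-/- deficient cortex replicate 1 for 8, Ttpa-/- supplemented cortex replicate 3 for 10, aged wild-type cerebellum replicate 1 for 8 and Ttpa-/- supplemented cerebellum replicate 3 for 8. The highest of its group for 8 genes was replicate 3 of the aged wild-type cortex, replicate 1 of the Ttpa-/- supplemented cortex and replicate 4 of the aged wild-type cerebellum.

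A level is given below as log2 of the signal over the 75th percentile of its array, so that 0 is the brightness of a probe at that percentile and each step of 1 is a doubling. The levels serve to compare groups within a gene and not genes with each other. A change is the difference of 2 group means on this scale, with the SE from limma and the p value adjusted over all probes tested in that comparison, and a gene was called when this adjusted p was under 0.05 and the fold change over 1.5. Each of the 10 genes passed the filter on dim probes in every comparison, except for Cst7 and Itgax between the regions at 2 months. On mm9, the probes lie at chr6:129411739-129411798 for Clec7a, chr6:49006386-49006445 for Gpnmb, chr7:135294052-135294111 for Itgax, chr2:150404490-150404549 for Cst7, chr17:48491537-48491596 for Trem2, chr14:48005414-48005473 for Lgals3, chr5:104868502-104868561 for Spp1 and chr7:26542541-26542600 for Axl. The 2 probes of Lpl are at chr8:71430267-71430326 and chr8:71425050-71425109, and the 60 bases of the Tyrobp probe span chr7:31200651-31202378, so that they join exons across an intron.

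**Figure D1:**
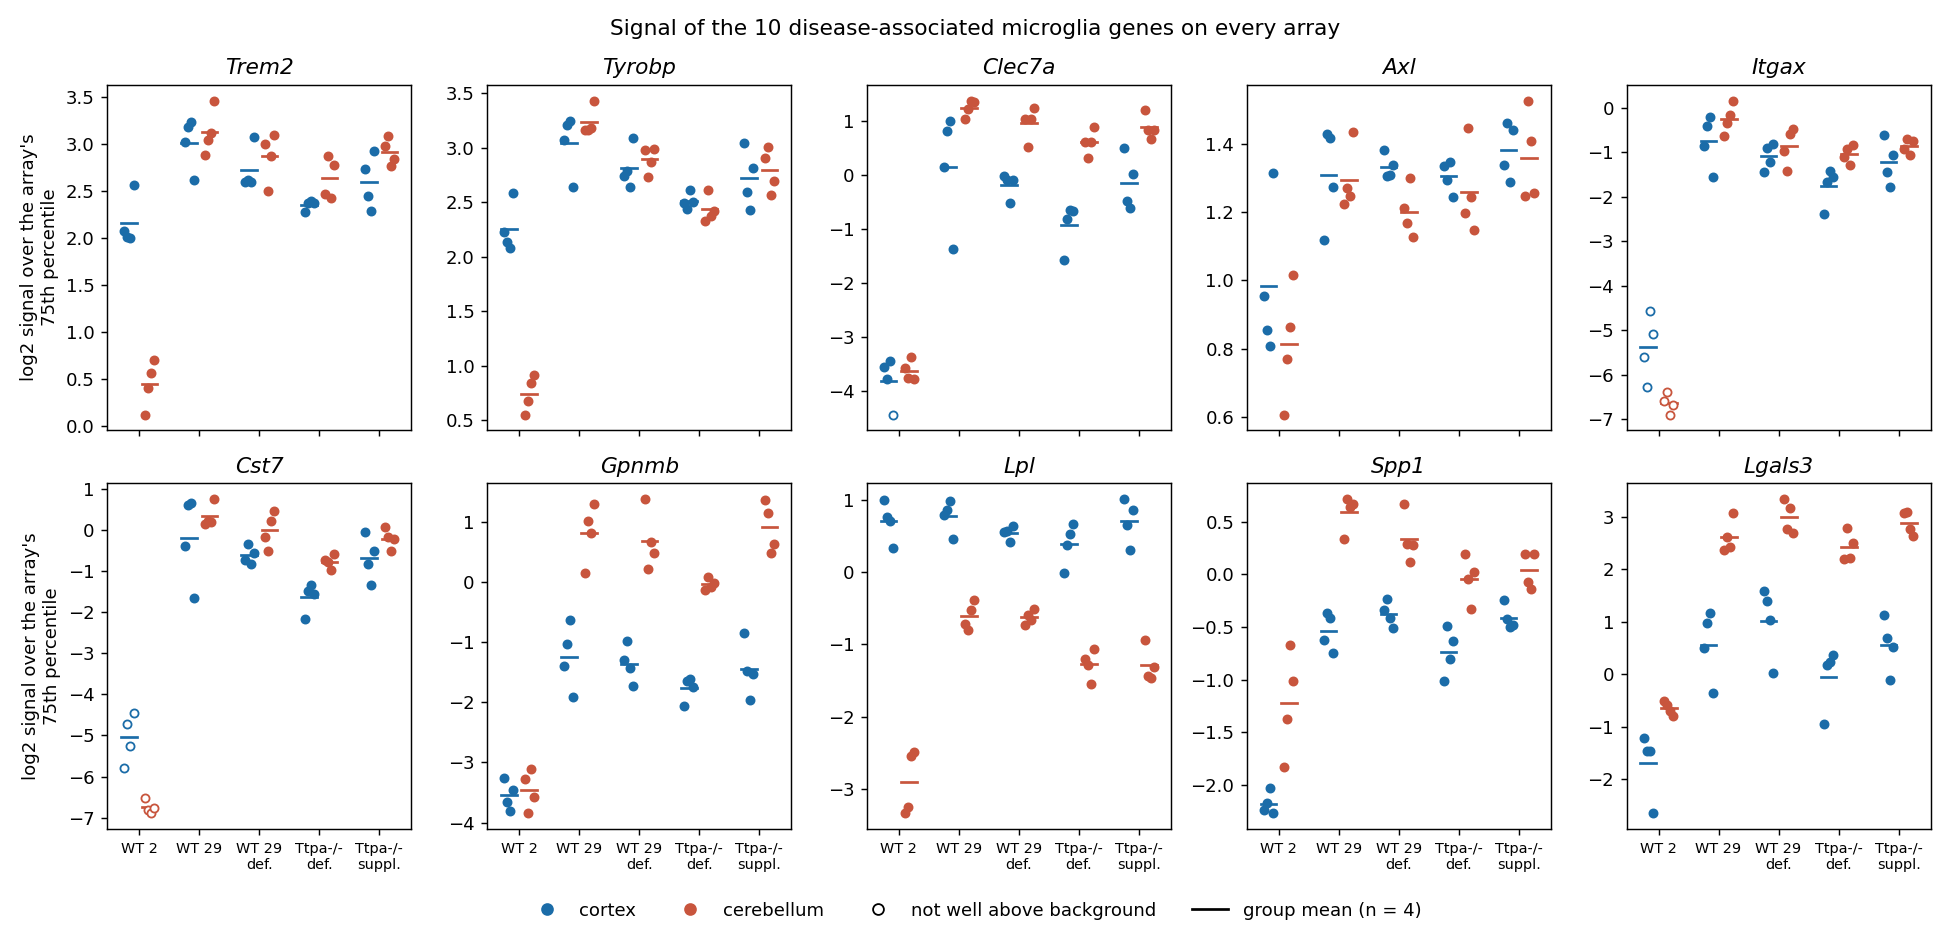
Level of each of the 10 genes on all 40 arrays, as log2 of the signal over the 75th percentile of the array, by group, with a bar at the group mean and open points where the probe was not well above background. The young groups lie lowest for Clec7a, Cst7, Itgax and Gpnmb in both regions, and Axl lies within a narrow band in all 10 groups.

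The promoters of 8 of the 10 genes were found in the RefSeq table for GRCm38.p6, and those of Tyrobp and Lpl were not in it. The 250 bases before the start are shown for the receptors Trem2 and Clec7a, the integrin Itgax and the lysosomal inhibitor Cst7, the genes whose values the sections on aging and on genotype turn on, 5′ to 3′ on the strand of the gene. Capitals mark GAGGAA, the core bound by the myeloid factor PU.1, and TGANTCA, a loose form of the AP-1 motif in which N is any base. Each was searched on both strands.
Trem2, chr17:48346151-48346400, plus strand: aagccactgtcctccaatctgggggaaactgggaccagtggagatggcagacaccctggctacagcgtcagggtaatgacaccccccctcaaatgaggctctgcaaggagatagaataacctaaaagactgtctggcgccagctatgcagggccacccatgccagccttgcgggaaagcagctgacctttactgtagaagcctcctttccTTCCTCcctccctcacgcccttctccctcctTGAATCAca
Clec7a, chr6:129472780-129473029, minus strand, 1 of 2 starts in the table: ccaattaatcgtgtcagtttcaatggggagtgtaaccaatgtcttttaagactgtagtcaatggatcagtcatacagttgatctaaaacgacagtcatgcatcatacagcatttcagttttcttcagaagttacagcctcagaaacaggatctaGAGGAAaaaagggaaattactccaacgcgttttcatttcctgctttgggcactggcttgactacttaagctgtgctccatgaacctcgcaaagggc
Itgax, chr7:128129300-128129549, plus strand: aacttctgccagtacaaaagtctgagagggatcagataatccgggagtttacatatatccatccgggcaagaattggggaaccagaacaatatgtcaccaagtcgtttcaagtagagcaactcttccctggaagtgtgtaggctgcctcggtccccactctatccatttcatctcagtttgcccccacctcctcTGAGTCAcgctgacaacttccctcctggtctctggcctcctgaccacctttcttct
Cst7, chr2:150570165-150570414, plus strand: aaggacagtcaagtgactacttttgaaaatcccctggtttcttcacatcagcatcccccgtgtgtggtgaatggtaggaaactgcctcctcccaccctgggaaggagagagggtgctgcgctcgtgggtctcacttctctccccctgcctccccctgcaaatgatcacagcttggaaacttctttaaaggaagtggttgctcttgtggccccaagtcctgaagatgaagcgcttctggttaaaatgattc
GAGGAA was found in 4 of the 8 windows, those of Axl, Clec7a, Spp1 and Trem2, against 23.3% of 32851 windows of this length. TGANTCA was found in 2, as TGAGTCA in Itgax and as TGAATCA in Trem2, against 6.75% with any base at N. The Trem2 window holds both, GAGGAA on the opposite strand at 40 to 35 bases before the start and TGANTCA at 9 to 3 bases. The letters CACGTG, in 6.02% of the windows, and CATGTG, in 12.3%, were in none of the 8.

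In the cerebral cortex, 8 of the 10 genes rose from 2 to 29 months, and none fell. Of the 28043 probes tested, 1.59% were called higher and 0.499% lower. Young and aged arrays were fully separated for 8 genes, all higher with age, against 6.88% of the probes. The median change of the 10 genes was 1.95, against -0.03 over all probes tested, and 1.24 with normexp background correction. Cst7 and Itgax were below background in the young mice. Their bounds lie above the median, which therefore could not move when they were put in. Both groups lay on the same slide.

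Among the receptors, Trem2 was 2.07, 2.01, 2.00 and 2.56 in the young cortex and 3.02, 3.18, 3.24 and 2.62 in the aged cortex. The aged arrays were all higher than the young ones, with replicate 4 of each group lying close to the other. The change was 0.85 (SE 0.16, adjusted p = 0.00131), 1.81-fold, and with each array scaled by its median it was 0.81 with an adjusted p of 0.0551. Tyrobp, its adaptor, rose from 2.22, 2.14, 2.08 and 2.59 to 3.07, 3.20, 3.24 and 2.64, a change of 0.78 (SE 0.13, adjusted p = 0.000333). Clec7a, the β-glucan receptor dectin-1, was -3.56, -3.79, -3.45 and -4.44 in young mice, the last below background, and 0.14, 0.82, 0.99 and -1.37 in aged mice. It rose 15.5-fold, by 3.96 (SE 0.32, adjusted p = 5.25e-10). Even the lowest aged array, replicate 4, is well above the highest young one. Axl, a TAM receptor that binds phosphatidylserine through its bridging ligand GAS6, changed by 0.33 (SE 0.10, adjusted p = 0.0437), 1.25-fold, which is under the fold threshold.

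Itgax, the integrin CD11c, and Cst7, which encodes the cathepsin inhibitor cystatin F, were not well above background on any young cortical array. Cst7 was -5.78, -4.72, -5.25 and -4.44 there and -0.40, 0.60, 0.66 and -1.65 in the aged cortex, and was at least 18.7-fold higher (change 4.85, SE 0.34, adjusted p = 1.55e-11). Itgax was -0.85, -0.41, -0.22 and -1.55 in the aged cortex, at least 12.7-fold higher (change 4.63, SE 0.29, adjusted p = 2.66e-12). These bounds set the aged mean against the lowest signal well above background on the young arrays, or the probe's own signal where that was higher. In both genes the aged array of replicate 4 was the lowest of its group and still above all young ones. Gpnmb, a glycoprotein of lysosomes, rose 4.94-fold, from between -3.80 and -3.26 to between -1.91 and -0.63 (change 2.31, SE 0.27, adjusted p = 6.75e-07). With normexp background correction, which adds an offset of 50 to each signal, the changes in the cortex were 2.47 for Cst7, 2.13 for Itgax, 2.44 for Clec7a and 1.31 for Gpnmb, all called.

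Of the secreted and lipid-handling genes, Spp1 (osteopontin) was -2.23, -2.17, -2.03 and -2.27 in the young cortex and -0.62, -0.37, -0.41 and -0.75 in the aged cortex, which are among the tightest groups of the 10 genes. Its change was 1.64 (SE 0.16, adjusted p = 3.27e-08), 3.11-fold. Lgals3, the β-galactoside-binding lectin galectin-3, rose 4.80-fold (change 2.26, SE 0.33, adjusted p = 4.08e-05), from between -2.65 and -1.21 to between -0.36 and 1.16. Lpl, the lipase that frees fatty acids from lipoproteins, was 0.99, 0.77, 0.71 and 0.34 in the young and 0.79, 0.87, 0.99 and 0.46 in the aged cortex. These values overlap, and the change was 0.07 with a 95% interval of -0.29 to 0.44 (adjusted p = 0.92).

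In the cerebellum 9 of the 10 genes rose with age, 3.99% of 30627 probes were called higher and 1.04% lower. The young and the aged arrays did not overlap for any of the 10, against 9.85% of the probes with every aged array higher. The median change was 2.97, against -0.01 over all probes tested. The bounds of Cst7 and Itgax lie above this median too, and so could not move it. The young and the aged cerebellum lay on different slides.

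Trem2 was 0.12, 0.41, 0.57 and 0.70 in the young cerebellum and 2.88, 3.04, 3.12 and 3.46 in the aged cerebellum. Its change of 2.67 (SE 0.16, adjusted p = 1.65e-13) was 6.38-fold. Tyrobp went from 0.55, 0.67, 0.85 and 0.92 to 3.17, 3.16, 3.18 and 3.43, a change of 2.49 (SE 0.13, adjusted p = 7.03e-15), 5.61-fold. The values within each of these groups lie far closer together than the groups do. Clec7a rose 29.3-fold, from between -3.79 and -3.37 to between 1.04 and 1.37. Axl was 0.61 to 1.02 in young and 1.22 to 1.44 in aged mice, a change of 0.48 (SE 0.10, adjusted p = 0.000666) that at 1.40-fold is under the fold threshold.

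Cst7 was -6.52, -6.80, -6.89 and -6.76 in the young cerebellum, below background on all 4 arrays, and 0.15, 0.23, 0.21 and 0.75 in the aged cerebellum, at least 34.6-fold higher. Itgax was likewise below background on the 4 young arrays and was at least 23.1-fold higher, at -0.64, -0.35, -0.17 and 0.16 in aged mice. Gpnmb rose 19.3-fold (change 4.27, SE 0.27, adjusted p = 1.77e-13) and Lgals3 9.61-fold (change 3.26, SE 0.33, adjusted p = 1.13e-08). With normexp the changes were 3.40 for Cst7, 2.97 for Itgax, 3.31 for Gpnmb, 3.71 for Clec7a and 1.59 for Lpl, all called. Spp1 rose 3.51-fold. Its young arrays, at -1.83, -1.37, -0.67 and -1.01, were more spread than its aged ones, at 0.33, 0.71, 0.64 and 0.67.

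Lpl, which did not pass the test in the cortex, was -3.34, -3.25, -2.55 and -2.49 in the young cerebellum and -0.72, -0.80, -0.53 and -0.38 in the aged cerebellum. It rose 4.93-fold (change 2.30, SE 0.18, adjusted p = 2.94e-11). The second Lpl probe was below background on the 4 young arrays and at -3.10, -2.78, -2.76 and -2.62 on the aged ones, at least 3.90-fold higher.

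**Figure D2:**
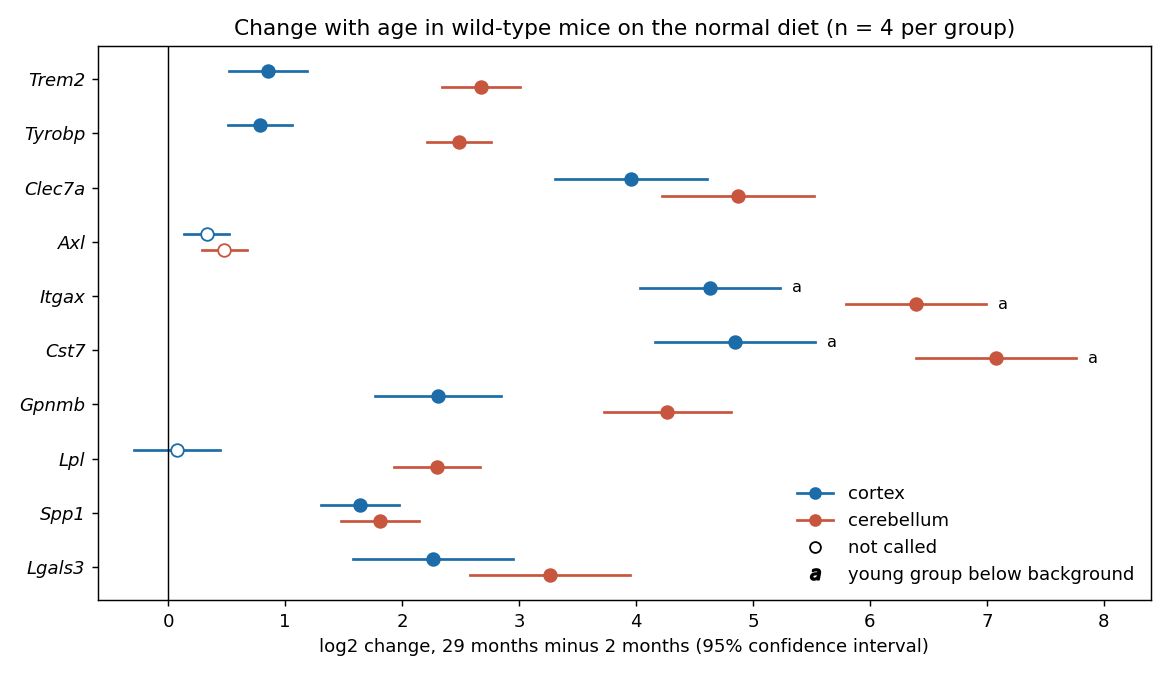
Change with age from 2 to 29 months of each of the 10 genes on the log2 scale, with 95% intervals, in the cerebral cortex and in the cerebellum, filled where called and marked with an a where the young group was below background. The fitted change in the cerebellum lies above that in the cortex for every gene, and among the 8 genes not marked with an a the gap is widest at Lpl (2.23) and narrowest at Axl and Spp1.

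The difference between the 2 regions was tested directly, as the change with age in the cerebellum minus that in the cortex. It was called for 6 of the 10 genes, all larger in the cerebellum, of which 4, Lpl, Tyrobp, Trem2 and Gpnmb, were measured in the young mice, against 1% of 31372 probes called higher and 0.462% lower. The difference was 2.23 for Lpl (SE 0.25, adjusted p = 2.24e-06), 1.71 for Tyrobp (SE 0.19, adjusted p = 1.4e-06), 1.82 for Trem2 (SE 0.23, adjusted p = 1.35e-05) and 1.96 for Gpnmb (SE 0.38, adjusted p = 0.00273). Which cells the Lpl signal came from in either region was not tested. For Cst7 and Itgax (adjusted p = 0.00762 and 0.0186) the young values are below background in both regions, so that neither the size of the difference nor the call rests on measured young levels. Both calls were lost with normexp background correction, with only the compared groups in the fit and with the adjusted t-test, that of Itgax also with median scaling and quantile normalization. The call of Itgax was further lost without young cortex replicate 3 (1.49, adjusted p = 0.0505), without aged cortex replicate 4 (1.50, adjusted p = 0.0535) and without aged cerebellum replicate 4 (1.63, adjusted p = 0.0504). For Lgals3 (1.0, adjusted p = 0.392), Clec7a (0.92, adjusted p = 0.42), Spp1 (0.17, adjusted p = 0.90) and Axl (0.15, adjusted p = 0.78) no difference between the regions was shown.

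The starting points differed. At 2 months, Trem2 was 3.27-fold and Tyrobp 2.85-fold lower in the cerebellum than in the cortex (adjusted p = 9.9e-11 and 1.59e-11), and Lpl was 12.2-fold lower, in a comparison in which 19.3% of 30203 probes were called higher and 19.1% lower. At 29 months the levels of Trem2 and Tyrobp overlapped between the regions, with changes of 0.11 (95% interval -0.23 to 0.45) and 0.20 (-0.08 to 0.47). Spp1 and Lgals3 were higher in the cerebellum at both ages, Spp1 by 0.96 and 1.13 and Lgals3 by 1.05 and 2.06. Lgals3 at 2 months was no longer called without young cortex replicate 4 (0.74, adjusted p = 0.0586). Gpnmb, which did not pass the test between the regions at 2 months (0.10, adjusted p = 0.77), was 2.06 higher in the aged cerebellum (SE 0.27, adjusted p = 6e-08), and Clec7a 1.1 higher (adjusted p = 0.0038; 0.60 without aged cortex replicate 4, and not called with only these 2 groups in the fit), in a comparison with 17.8% of 30859 probes called higher and 15.8% lower. Lpl was 1.38 lower in the aged cerebellum (-1.38, adjusted p = 7.31e-08), and its second probe gave -1.32.

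Other genes of the pathway were read from lists. Of 26 further genes of the disease-associated state, 10 of 25 tested rose with age in the cortex and 13 of 26 in the cerebellum, and none fell. The chemokine Ccl3 rose by 3.02 in the cortex and 4.96 in the cerebellum, Ccl4 by 2.73 and 4.29, and the lysozyme Lyz2 by 2.43 and 3.33. Of the ITAM signalling genes, which are adaptors, kinases and other parts of this kind of signalling, 4 of 11 tested rose in the cortex, among them the adaptor Lat2 (1.10), the phospholipase Plcg2 (0.67) and the Fc receptor chain Fcer1g (0.61). In the cerebellum 8 of 11 rose, with Fcer1g at 2.00, the phosphatase Ptpn6 at 1.77 and the kinase Btk at 1.77. Of 15 ligands and partner receptors, 3 rose in the cortex and 6 in the cerebellum, in both the galectin-3 binding protein Lgals3bp (0.97 and 2.12) and the β2 integrin Itgb2 (0.90 and 1.99).

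Markers of microglia in general moved with the members in the cerebellum, and in the cortex only in part. Of 10 pan-microglia and macrophage genes, 5 rose with age in the cortex, such as the cathepsin Ctss (1.08) and the complement gene C1qa (0.87), and 9 in the cerebellum, with C1qa at 2.25 and Ctss at 2.24. Their summed level was 140 to 161 times the 75th percentile in the young and 143 to 197 in the aged cortex, which overlap, and 88.0 to 97.8 in the young and 131 to 145 in the aged cerebellum, which do not. Such a sum adds signals on the linear scale, so the brightest probes of a list weigh most in it. Itgam of this list was not called in the cortex (-0.07) or in the cerebellum (-0.03). The summed level of the 10 members was 12.5 to 16.2 in the young and 18.9 to 31.6 in the aged cortex, and 5.37 to 6.97 and 30.6 to 43.1 in the cerebellum. Genes of homeostatic microglia, such as the purinergic receptor P2ry12, were called for 0 of 12 in the cortex, and 7 of 12 rose in the cerebellum, with Gpr34 at 1.44 and Tmem119 at 0.87. None of the 12 fell in either region.

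Markers of other cells moved too. Of the border macrophage genes, 2 of 5 tested rose in the cortex and 2 of 6 in the cerebellum, with a summed level of 2.10 to 2.44 in the young and 2.59 to 3.25 in the aged cortex and of 1.47 to 1.93 and 2.88 to 3.77 in the cerebellum. Genes of monocytes and neutrophils rose in the cortex for 2 of 3 tested, from a sum of 0.326 to 0.603 to one of 1.70 to 2.06, and for 0 of 4 in the cerebellum, where the sum was 1.46 to 4.84 in young and 5.17 to 52.7 in aged mice. The defining genes Ngp, in both cortical groups, and Ccr2, in the aged cortex and the young cerebellum, were above background on 0 of 4 arrays. Blood genes summed to 0.434 to 1.97 in the young and 4.69 to 11.1 in the aged cortex, with 0 of 2 called, and to 3.06 to 7.46 and 11.9 to 84.4 in the cerebellum, where 2 of 3 rose. Choroid plexus genes varied between arrays of the same group, from 2.58 to 136 in the young cortex and from 8.65 to 250 in the young cerebellum, against 5.53 to 6.46 in the aged cerebellum, where 3 of 7 fell. Striatal genes fell for 3 of 7 in the cortex, and 3 of 6 rose in the cerebellum. No gene of the meninges was called with age. The part of these cells in the changes of the 10 genes was not tested.

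**Figure D3:**
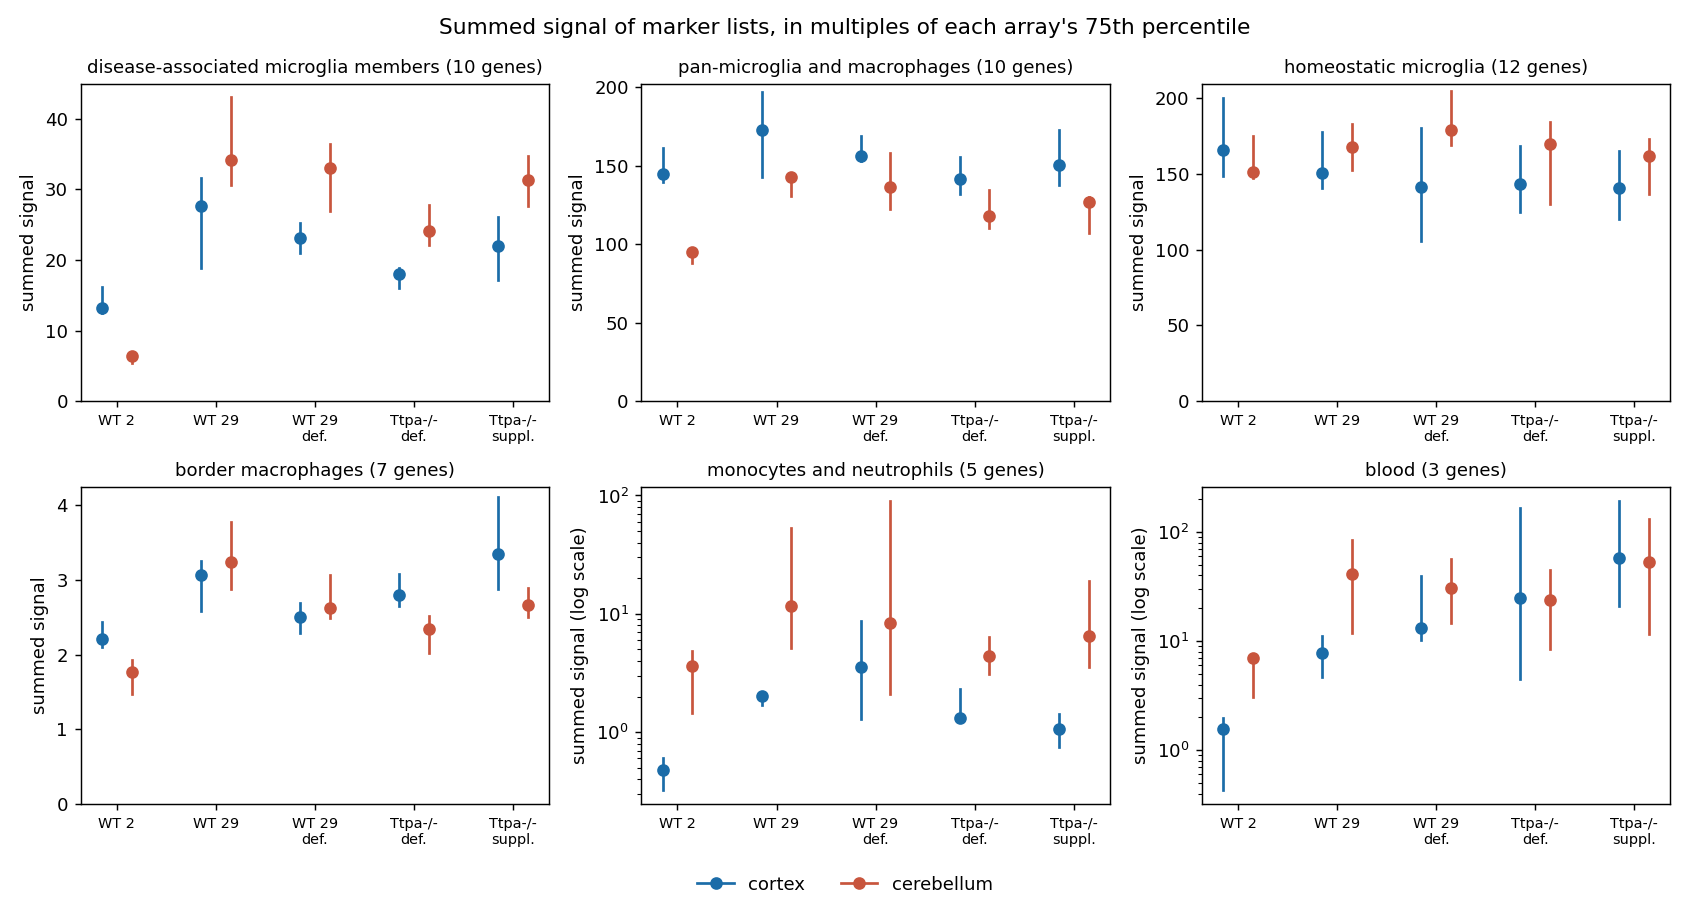
Summed level of 6 gene lists by group, in multiples of the 75th percentile of the array, with a point at the median of 4 arrays and a line from the lowest to the highest, on a log axis for the lists of monocytes and neutrophils and of blood. The brightest probes of a list weigh most in its sum. The 10 members lie lowest in the young cerebellum, at 5.37 to 6.97, and the pan-microglia genes are lowest there too, at 88.0 to 97.8.

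The deficient diet alone, in aged wild-type mice, gave no called change of the 10 genes in either region. In the cortex 0.117% of 28254 probes were called higher and 0.106% lower, and in the cerebellum 0.461% of 30990 were called higher and 0.82% lower. Clec7a was -0.03, -0.09, -0.53 and -0.09 in the cortex on the deficient diet, within the range of the mice on the normal diet (change -0.33, 95% interval -0.98 to 0.32). In the cerebellum, where both diets lay on the same slide, 9 of the 10 changes were negative, with a median of -0.25, against -0.01 over all probes tested. Tyrobp was the only gene whose groups did not overlap there, at 2.98, 2.73, 2.87 and 2.98 on the deficient diet against 3.16 to 3.43 on the normal diet (change -0.34, SE 0.13, adjusted p = 0.133), and 9.96% of the probes were separated in this direction. The change of Itgax was -0.62 (95% interval -1.22 to -0.01, adjusted p = 0.226). By the unadjusted limma p value, Tyrobp and Itgax passed in the cerebellum, Tyrobp under the fold threshold, and none of the 10 in the cortex. The share of all probes passing by an unadjusted p value was not counted, here or below. The 2 genes of homeostatic microglia Slc2a5 (-1.15) and Fcrls (-0.97) fell in the cerebellum on this diet, and none of the pan-microglia genes was called.

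Ttpa-/- mice on the deficient diet were next compared with normally fed aged wild-type mice, the comparison in which genotype and diet both differ. All 10 genes had a lower mean in the Ttpa-/- mice in both regions, though Axl in the cortex turned to slightly higher with median scaling or quantile normalization, 4 fell in the cortex and 5 in the cerebellum, and none rose. In the cortex 3.14% of 28913 probes were called higher and 1.6% lower, and in the cerebellum 2.67% of 30604 were called higher and 1.79% lower. The median change of the 10 genes was -0.57 in the cortex and -0.66 in the cerebellum, against -0.02 over all probes in each. The aged wild-type arrays are the same ones that enter the comparisons with age, so the 2 sets of changes share them.

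In the cortex, Trem2 was 2.28, 2.37, 2.39 and 2.37 in these Ttpa-/- mice, below each of the 4 aged wild-type values (2.62 to 3.24). It fell by 0.66 (SE 0.16, adjusted p = 0.00543), and its level stayed above 3 of the 4 young wild-type arrays. Tyrobp, at 2.49, 2.43, 2.61 and 2.50, was also below each wild-type array, though with a change of -0.53 (adjusted p = 0.00618) it is under the fold threshold. These are the 2 genes whose groups did not overlap, and 11.6% of the probes were separated in this direction. Cst7 was -2.15, -1.48, -1.33 and -1.55 and fell by 1.43 (SE 0.34, adjusted p = 0.00344), 2.70-fold. Clec7a was -1.58, -0.82, -0.66 and -0.66 and fell by 1.08 (adjusted p = 0.017), and Itgax fell by 1.0 (adjusted p = 0.0165). In these 3 genes the aged wild-type replicate 4, the lowest of its group, lay among the Ttpa-/- values. Spp1 (-0.20, 95% interval -0.53 to 0.13) and Axl (95% interval -0.20 to 0.19) did not pass the test. The number of genes called was 2 without wild-type replicate 2, without wild-type replicate 3 or without Ttpa-/- replicate 1, when Clec7a and Itgax were lost, and 5 without wild-type replicate 4, when Tyrobp was added. When only these 2 groups entered the fit, 1 gene was called.

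In the cerebellum, Tyrobp was 2.33, 2.61, 2.38 and 2.42 in the Ttpa-/- mice against 3.17, 3.16, 3.18 and 3.43 in aged wild-type mice. The 2 groups are well separated, and Tyrobp fell by 0.80 (SE 0.13, adjusted p = 0.000186), 1.74-fold. Cst7 was -0.73, -0.77, -0.98 and -0.59 against 0.15 to 0.75, and fell by 1.10 (SE 0.34, adjusted p = 0.0269), 2.15-fold. Gpnmb, at -0.13, 0.08, -0.08 and -0.01, fell by 0.85 (SE 0.27, adjusted p = 0.0306), and its wild-type value of 0.15 on replicate 1 was close to them. Lpl fell by 0.67 (SE 0.18, adjusted p = 0.0127), from between -0.80 and -0.38 to -1.21, -1.29, -1.55 and -1.06, and its second probe gave -0.95 (adjusted p = 0.00446). Spp1 fell by 0.63 (SE 0.16, adjusted p = 0.00951), from between 0.33 and 0.71 to 0.19, -0.04, -0.33 and 0.02. Of the others, Trem2 changed by -0.49 (adjusted p = 0.0447), 1.40-fold, Itgax by -0.79 (adjusted p = 0.0709) and Clec7a by -0.64 (adjusted p = 0.186), each with no overlap. In all, 8 of the 10 genes did not overlap, against 7.79% of the probes. The call of Gpnmb was lost in 6 of the 8 refits that left out 1 array. Without Ttpa-/- replicate 3 only Tyrobp was called, and without wild-type replicate 4 there were 3. With normexp 4 were called, Lpl and Spp1 falling under the fold threshold and Itgax passing it. With each array scaled by its median in place of the 75th percentile, Tyrobp was again the 1 gene called here, and in the cortex 2 were.

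A part of the other microglial genes was lower with them, and in the cortex most were not called. In the cortex, 5 of 25 further genes of the disease-associated state fell, among them Ccl3 (-1.07), Lyz2 (-0.91) and Ccl4 (-0.89), and the growth factor Igf1 rose (0.78). Of the ITAM genes only Btk (-0.77) fell, and of the pan-microglia genes only Ly86 (-0.61), whose list summed to 132 to 155 in the Ttpa-/- mice against 143 to 197 in wild-type mice. None of the 12 homeostatic genes was called in the cortex. In the cerebellum, 4 of 26 further genes fell, among them the proton pump subunit Atp6v0d2 (-1.62), Lyz2 (-1.27) and the chemokine Ccl6 (-0.73). Pan-microglia genes fell for 4 of 10, C1qb by 0.81 and Laptm5 by 0.86, and their sum was 110 to 134 in the Ttpa-/- mice, against 131 to 145. Fcer1g (-0.60) and the homeostatic gene Fcrls (-1.43) fell there too. Of the border macrophage genes 2 of 6 fell in the cerebellum, with a sum of 2.02 to 2.51 against 2.88 to 3.77. Striatal genes rose for 2 of 7 in the cortex, where their sum was 59.2 to 70.4 against 40.8 to 52.9. The part of these cells in the changes of the 10 genes was not tested.

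The difference of this effect between the regions was called for 0 of the 10 genes, against 1.47% of 31560 probes called higher and 1.91% lower, and by the unadjusted limma p value for 0 as well. For Cst7 it was 0.33 with a 95% interval of -0.64 to 1.30, and for Spp1, which was called in the cerebellum and not in the cortex, it was -0.43 (-0.90 to 0.04). The second Lpl probe gave -0.84 (adjusted p = 0.096) and the first -0.29. The second probe of Lpl passed by the unadjusted p value. A difference between the cortex and the cerebellum was thus not shown for any of the 10 genes.

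**Figure D4:**
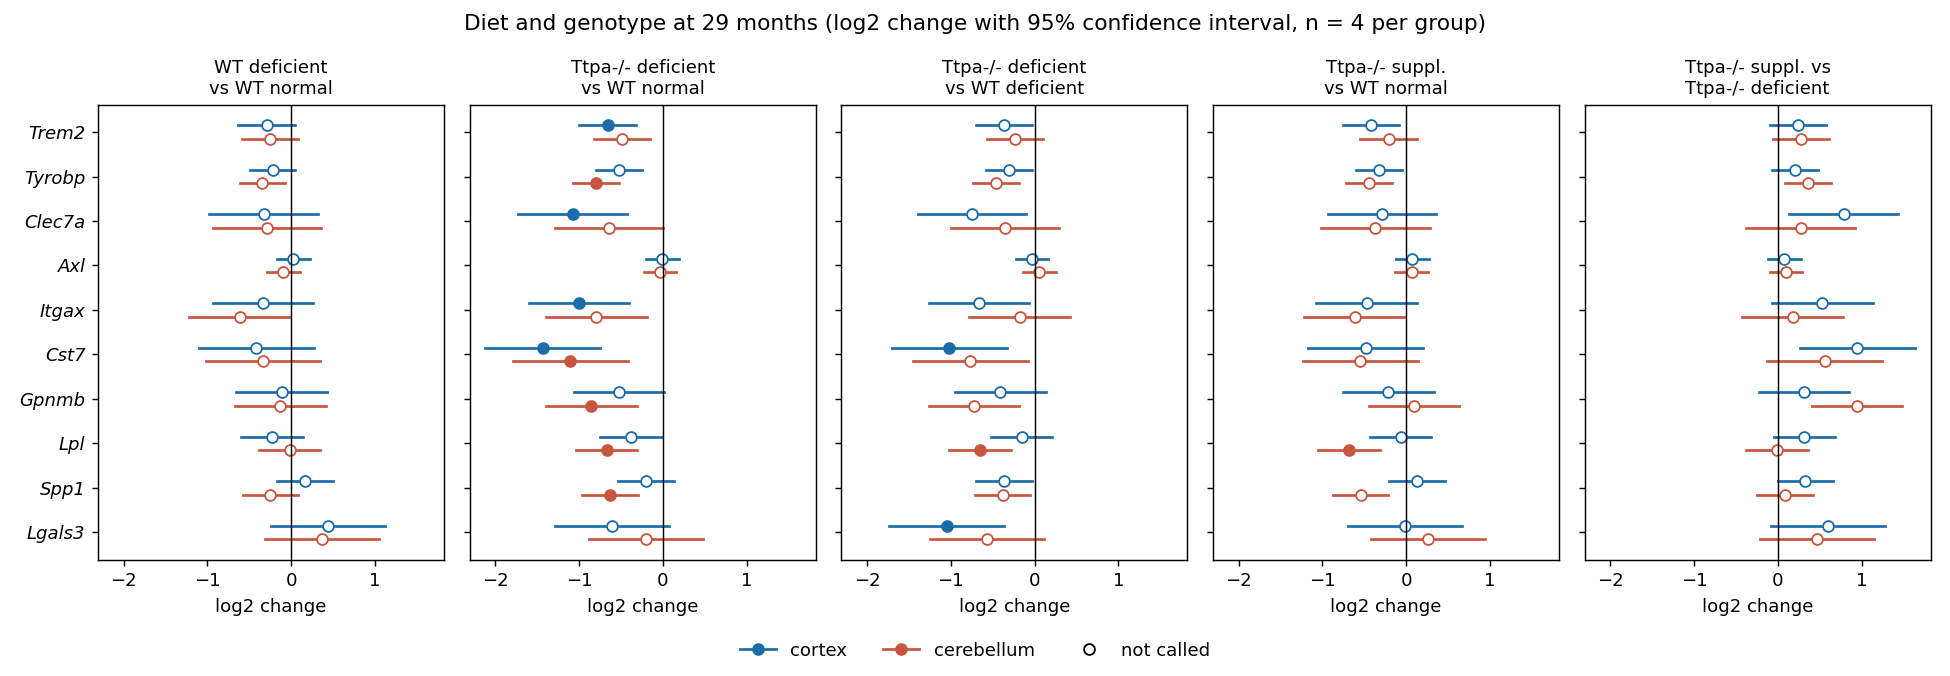
Change on the log2 scale of each of the 10 genes in the diet and genotype comparisons of aged mice, with 95% intervals, in the cortex and in the cerebellum, filled where called. Against wild-type mice on the normal diet, the changes of Ttpa-/- mice on the deficient diet lie at or below 0 for all 10 genes in both regions, except that Axl in the cortex turned to just above 0 under other scalings, and no change of wild-type mice on the deficient diet is filled.

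With the diet held equal, on the deficient diet, Ttpa-/- mice had 2 genes lower than wild-type mice in the cortex, where 1.53% of 29061 probes were called in each direction. Lgals3 was -0.95, 0.19, 0.23 and 0.36 against 1.59, 1.39, 1.03 and 0.02 in wild-type mice, so that the lowest wild-type array lay among the Ttpa-/- values. It fell by 1.05 (SE 0.33, adjusted p = 0.0355). Cst7 fell by 1.02 (SE 0.34, adjusted p = 0.0425), from -0.73, -0.34, -0.82 and -0.57 to values between -2.15 and -1.33, with no overlap. In all, 4 genes had every Ttpa-/- array lower, against 9.5% of the probes. None was called when wild-type replicate 1, 2 or 3 or Ttpa-/- replicate 1 or 3 was left out, 1 was called without wild-type replicate 4 or Ttpa-/- replicate 2, and none when only these 2 groups entered the fit, when each array was scaled by its median or when no filter was set on dim probes. In the cerebellum, 3.02% of 30552 probes were called higher and 1.92% lower, and Lpl fell by 0.65 (SE 0.18, adjusted p = 0.0151). Its wild-type values of -0.73, -0.59, -0.66 and -0.52 were all above those of the Ttpa-/- mice, its second probe gave -0.54 (adjusted p = 0.0993), and the call was lost without Ttpa-/- replicate 3 (-0.56, adjusted p = 0.0556), with median scaling, with normexp background correction and with the adjusted t-test. Tyrobp changed by -0.46 (adjusted p = 0.0224), 1.37-fold, under the fold threshold. Without wild-type replicate 2 there were 2 calls, with Gpnmb added. Here too 4 genes had every Ttpa-/- array lower, against 5.19% of the probes. Of the further genes of the disease-associated state, Ch25h and Lyz2 fell in the cortex (-1.38 and -0.75) and in the cerebellum (-1.48 and -0.89), where Igf1 rose (0.71), as did the homeostatic genes Slc2a5 (0.88) and P2ry12 (0.60).

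Ttpa-/- mice on the supplemented diet had 0 of the 10 genes called against normally fed aged wild-type mice in the cortex, where 0.0354% of 28268 probes were called higher and 0.0566% lower. No gene of the 10 had separate groups there, and by the unadjusted p value Trem2 and Tyrobp passed (-0.42 and -0.32), both under the fold threshold. In the cerebellum 3.34% of 31265 probes were called higher and 1.57% lower, and Lpl fell, at -0.94, -1.44, -1.47 and -1.31 against -0.72, -0.80, -0.53 and -0.38, by 0.68 (SE 0.18, adjusted p = 0.0101). Its second probe gave -0.45 (adjusted p = 0.169), and the first was not called with normexp background correction. Tyrobp (-0.44, adjusted p = 0.0257) and Spp1 (-0.54, adjusted p = 0.0223) were under the fold threshold, and 5 genes had all Ttpa-/- arrays lower, against 12% of the probes. Spp1 was called too without wild-type replicate 1, Ttpa-/- replicate 1 or Ttpa-/- replicate 4.

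Between the 2 diets of the Ttpa-/- mice no gene of the 10 was called. All 10 means were higher on the supplemented diet in the cortex, Axl not so with median scaling, with a median change of 0.32 against 0.02 over all probes, 1.32% of 29077 probes being called higher and 1.99% lower. Of these calls 39.8% were higher, against 12.1% with median scaling. Cst7 was -0.04, -0.84, -1.34 and -0.51 on the supplemented diet, with replicate 3 next to the highest deficient value of -1.33, and its change of 0.95 (95% interval 0.26 to 1.63) had an adjusted p of 0.0549. Without that replicate Cst7 was called. The groups were separate for 1 gene, against 9.37% of the probes. In the cerebellum, where the 2 diets shared a slide, 0.209% of 30643 probes were called higher and 0.134% lower, and 9 of the 10 means were higher. Gpnmb was 1.36, 1.15, 0.49 and 0.63 on the supplemented diet, each above the 4 deficient values, as for 2 of the 10 genes and 2.47% of the probes, with a change of 0.94 (95% interval 0.40 to 1.49, adjusted p = 0.0884). By the unadjusted p value, Clec7a and Cst7 passed in the cortex and Gpnmb and Tyrobp in the cerebellum, where Tyrobp (0.36) was under the fold threshold. No share over all probes was counted beside these.

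Ordered by their means over the 10 groups, the 10 genes had few steps between neighbours that were called, of 9 steps each. Clec7a, Itgax, Spp1, Trem2 and Tyrobp had 1 such step, Cst7, Gpnmb and Lgals3 had 2, Lpl had 3 and Axl had none. For Clec7a the step lies between the 2 young groups and the lowest aged group, the Ttpa-/- cortex on the deficient diet (2.70, adjusted p = 7.21e-09), and the 8 aged groups above it, from a mean of -0.93 to one of 1.25, had no called step between neighbours. Cst7 has a called step at the same place, above the young cortex, of a size that is not measured since the gene was below background there, and the other lies between the cortex and the cerebellum of the Ttpa-/- mice on the deficient diet (0.86, adjusted p = 0.0252). Gpnmb has its second called step between the highest cortical group and the lowest aged cerebellar group (1.20, adjusted p = 0.000207), so that for this gene every aged cerebellar group lies above every cortical one. For Lgals3 it is the same (1.41, adjusted p = 0.000448). For Trem2 and Tyrobp the 1 called step lies between the young cerebellum, which is lowest, and the young cortex, and for Spp1 between the young cortex and the young cerebellum. The choice of neighbours follows the means, so these p values describe the order and no more.

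The likeness of 2 genes was measured as the root mean square difference of their group means over the 10 groups, after centring each gene. Trem2 and Tyrobp differed by 0.13, and Cst7 and Itgax by 0.26, each the closest member to the other. Among all other genes on the arrays, the pattern of Trem2 was most like those of Mpeg1 (0.11), a pore-forming protein of macrophages, and Ctss (0.16), and that of Tyrobp most like Myo1f (0.12) and Mpeg1 (0.14). Clec7a was closest to Lilrb4 (0.35) and Ccl3 (0.47), Gpnmb to Clec4d (0.32) and Cxcl10 (0.40), Lgals3 to Clec4d (0.32) and Mnda (0.33), and Lpl to Blnk (0.26) and Zbtb16 (0.28). Spp1 was closest to 5730416F02Rik (0.15) and Thbs1 (0.19), and Itgax to Ccl3 (0.60) and Ccl8 (0.76). Cst7 and Itgax were below background in both young groups, so their likeness to any gene rests in part on levels that were not measured. The values describe group means that share arrays, and carry no test. For Axl, whose group means vary by an SD of 0.18, no likeness is given.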

How the data were processed

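RNA of 40 tissue samples, 10 groups of 4 mice, was measured on Agilent 1-colour arrays, with groups taken from the deposited labels. Scanner output was deposited for every array, from Feature Extraction (10.7.3.1 per the file headers, 10.1.1.1 per the submitters' processing notes), in 61 columns. Here 15 of these were used, and the other 46 were left aside. The processed signal is an intensity from which the authors' software had removed background and the spatial trend of the array, with no scaling between arrays. Flags of spots and of signal above background are 0 or 1. A value table on the log2 scale was deposited by the authors too, whose scale, centring and direction were found by comparison: each value is a log2 intensity relative to the 75th percentile of its array, with the probe's mean removed, from which the values computed here differed by a median of 0.00085 in size, with column medians of -0.24 to 0.18.

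Here R 4.3.3 (package data.table, version 1.17.8) was used to drop flagged spots (95 to 148 an array), to average the spots of a probe and to scale each array to its own 75th percentile on the log2 scale. Being well above background needed 50% or more of a probe's spots, and 92 of 55681 probes without an unflagged spot on some array were left out. The 75th percentile was 365 to 925, with 51.4% to 61.4% of probes above background on an array and 0 saturated. The number of arrays limits the precision. limma 3.58.1 was fitted with lmFit and eBayes to the 40 arrays together, 1 coefficient per group and no block, and Benjamini-Hochberg adjustment covered the probes well above background on 4 of 4 arrays of at least 1 compared group. All tests are two-sided. The probe with the highest mean stood for a gene. The alternatives were each array left out, median scaling, quantile normalization, normexp background correction, array weights, no filter on dim probes, only the compared groups, the deposited log2 values, the unadjusted p value, the methods' t-test and the replicate number as a block.

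The 10 genes and the lists were chosen with earlier results of these data known. Named are all 10 genes, the called genes of each list with the largest change, and for likeness the 2 genes with the smallest difference among those searched, for genes whose group means have an SD over 0.5. The symbol of Clec7a was matched to the RefSeq table by name and those of the other 9 by accession. Labels give the groups the same replicate numbers. Deviations of same-numbered arrays from their group means correlated above 0.1 in every pair only between the 2 diets of the Ttpa-/- cortex (0.167 to 0.347). The fit behind the results used no pairing, and the replicate number entered as a block only as an alternative.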

Additional observations from a re-analysis of the deposited data

Results flagged for a closer look

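Of 100 sets of 4 arrays, 1 for each gene and group, 6 held an array far from the other 3, where chance gives about 1 in 20. In the wild-type cortex on the deficient diet these were replicate 3 for Clec7a (-0.53) and replicate 4 for Trem2 (3.07). In the young cortex it was replicate 4 for Trem2 (2.56). In the Ttpa-/- cortex on the deficient diet it was replicate 1 for Lgals3 (-0.95). In the aged wild-type cerebellum it was replicate 4 for both Cst7 (0.75) and Tyrobp (3.43).

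The change with age differed between the regions by the test of the difference for 6 genes, with a larger rise in the cerebellum by 2.23 for Lpl, 1.96 for Gpnmb, 1.82 for Trem2 and 1.71 for Tyrobp on the log2 scale. The fitted values of 2.23 for Cst7 and 1.76 for Itgax are no measured sizes, since both were below background in the young mice of both regions, and both calls were lost with normexp background correction (0.92 and 0.84). The young and the aged cortex shared a slide and the young and the aged cerebellum did not, so that for these differences slide and group cannot be told apart.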

How the results depend on the processing

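Of 46 calls of a gene in a comparison, 35 were kept in each refit that left out 1 array, 11 were lost in at least 1, and 0 changed direction. In both comparisons with age the counts were the same whichever array was left out, 8 to 8 in the cortex and 9 to 9 in the cerebellum. The counts ranged from 2 to 5 for deficient Ttpa-/- mice against normally fed wild-type mice in the cortex and from 1 to 5 in the cerebellum, from 0 to 2 for the genotype on the deficient diet in either region, from 1 to 2 for the supplemented Ttpa-/- cerebellum, from 0 to 1 for the diet of Ttpa-/- mice in the cortex, from 4 to 5 and 5 to 6 between the regions at 2 and at 29 months, and from 5 to 6 for the difference of aging between the regions. The other counts stayed at 0 to 0.

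Under the other settings the count of genes called changed as follows. For aging in the cortex it was 5 with only the compared groups and 5 with the methods' t-test after adjustment. For deficient Ttpa-/- mice against normally fed wild-type mice it was, in the cortex, 2 with median scaling, 1 with only the compared groups and 1 with the adjusted t-test, and in the cerebellum 1 with median scaling and 2 with the adjusted t-test. For the genotype on the deficient diet it was, in the cortex, 0 with median scaling, no filter, only the compared groups or the adjusted t-test, 1 with quantile normalization, 4 with array weights and 4 by the unadjusted p value, and in the cerebellum 0 with median scaling or the adjusted t-test and 3 by the unadjusted p value or t-test. For the supplemented Ttpa-/- cerebellum it was 0 with normexp and 2 by the unadjusted p value or t-test. For the diet of Ttpa-/- mice it was 1 with normexp and 1 by the unadjusted t-test in either region, 1 with array weights and 2 by the unadjusted p value in the cortex, and 1 by the unadjusted p value in the cerebellum. For the deficient diet of wild-type mice in the cerebellum it was 1 by the unadjusted p value. Counts by an unadjusted p value or t-test have no share of all probes beside them. The cause was not tested, beyond the fewer arrays or the larger number of probes that a setting itself brings. The count was within 1.5 times that of the report in every other case, though not always from the same genes. With normexp it was 4 for deficient Ttpa-/- mice against normally fed wild-type mice in the cerebellum, without Lpl and Spp1 and with Itgax, 1 for the genotype in the cerebellum, Gpnmb in place of Lpl, and 4 for the difference of aging between the regions, without Cst7 and Itgax. Of the called changes, 13 moved by over 1.5 times in fold, all with normexp and all toward 0, among them Lpl between the regions at 2 months (-2.80) and in the difference of aging (1.52). With the replicate number as a replicate block, 8 genes were called with age in the cortex and 9 in the cerebellum. The block changed no call of the 10 genes, also not between the 2 diets of the Ttpa-/- cortex, where 0 were called with it. A slide block could not be fitted, since no group spans 2 slides.

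The direction turned for changes that were not called. For Axl in the cortex of deficient Ttpa-/- mice against normally fed wild-type mice, the change became 0.071 with median scaling, 0.021 with quantile normalization, 0.026 with normexp and 0.013 with array weights, and between the 2 diets there -0.032 with median scaling. Axl between the regions at 29 months became 0.0060 with quantile normalization and 0.031 with normexp. Between the regions at 2 months, with normexp, Clec7a became -0.26 and Gpnmb -0.16. Itgax for the genotype in the cerebellum became 0.00074 with median scaling, Lpl for the wild-type deficient diet in the cerebellum 0.0047 with normexp, and Lpl between the diets of the Ttpa-/- cerebellum 0.081 with array weights. The cause was not tested. Leaving out 1 array turned 20 such changes, some of them among those just named. Their values over these refits ranged as follows. With age, Lpl in the cortex ranged from -0.048 to 0.18, and the difference of Spp1 between the regions from -0.032 to 0.35. Between the regions Clec7a ranged from -0.026 to 0.30 and Gpnmb from -0.019 to 0.23 at 2 months, and Axl from -0.079 to 0.024 and Trem2 from -0.022 to 0.19 at 29 months. On the deficient diet in wild-type mice, Axl ranged from -0.041 to 0.063 and Gpnmb from -0.34 to 0.088 in the cortex, and Gpnmb from -0.36 to 0.028 and Lpl from -0.082 to 0.056 in the cerebellum. For deficient Ttpa-/- mice against normally fed wild-type mice, Axl ranged from -0.069 to 0.035 in the cortex, from -0.098 to 0.012 in the cerebellum and from -0.093 to 0.034 in their difference, where Itgax ranged from -0.00080 to 0.47. For supplemented Ttpa-/- mice, Lgals3 ranged from -0.32 to 0.21 and Lpl from -0.17 to 0.067 in the cortex and Gpnmb from -0.13 to 0.25 in the cerebellum. In the cerebellum Axl ranged from -0.0045 to 0.096 for the genotype on the deficient diet, and Lpl from -0.13 to 0.059 and Spp1 from -0.012 to 0.16 between the diets of Ttpa-/- mice.

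Median scaling moved the median over all probes to 0.17 for the genotype on the deficient diet in the cerebellum and to -0.19 for the wild-type deficient diet there, from -0.01 in each, and the share of calls that are higher from 61.1% to 87.1% and from 36.0% to 4.2%. It moved the median for the diet of Ttpa-/- mice in the cortex from 0.02 to -0.09, and the share from 39.8% to 12.1%. The share moved from 66.2% to 82.7% for deficient Ttpa-/- mice against normally fed wild-type mice in the cortex, from 43.5% to 29.9% for the difference of this effect between the regions, and, over few calls, from 52.4% to 81.8% for the wild-type deficient diet and from 38.5% to 50% for supplemented Ttpa-/- mice in the cortex. Quantile normalization gave 72.9% for the genotype in the cerebellum, 19.6% for the wild-type deficient diet there and 28.1% for the diet of Ttpa-/- mice in the cortex. Genes dim in the young groups, Cst7 and Itgax, have a bound and not a measured fold.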
